A study of Mus musculus with 20 samples.

Results

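The genes described here are the mouse platelet-derived growth factor (PDGF) family: the 4 ligand genes Pdgfa, Pdgfb, Pdgfc and Pdgfd and the 2 receptor genes Pdgfra and Pdgfrb. They were picked by gene symbol, with no use of their values, and are 6 of the 55573 genes in the count table. RNA-seq had been run on embryoid body (EB) cultures, aggregates in which pluripotent cells differentiate, from 4 mouse induced pluripotent stem cell (iPSC) lines on days 0, 3, 5, 7 and 14. The wild type lines were WT#1-4 and WT#20D-17, and the lines without the NADPH oxidase gene Nox4 were Nox4-/- #5-8 and Nox4-/- #5-23. WT#1-4 and both Nox4-/- lines are single clones reprogrammed from embryonic fibroblasts with retroviral Oct4, Sox2, Klf4 and c-Myc, whereas the study does not describe WT#20D-17, whose derivation is not given in the sources used here. Per the labels all lines were kept with LIF on mitomycin C treated mouse embryonic fibroblast feeders, aggregated in hanging drops and plated on gelatin. Each line gave 1 library per day, so it has no replicate at any day, and the spread over days stands in for error within a line. The last time point is day 14 in the sample titles and day 10 in their protocol text, and day 14 is used.

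PDGFs are secreted dimers that bind and pair 2 tyrosine kinase receptors at the cell surface. PDGF-A and PDGF-C act mainly through PDGFR-alpha, PDGF-D through PDGFR-beta and PDGF-B through both, and PDGF-C and PDGF-D are secreted latent and have to be cut by proteases before they bind. In the embryo Pdgfra marks primitive endoderm, nascent and paraxial mesoderm and later fibroblasts, Pdgfrb marks mural cells around vessels and fibroblasts, and ligands usually come from neighbouring epithelial or endothelial cells.

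Levels are in CPM, each gene's count relative to the total of its library, with TMM factors that correct for differences in composition between libraries. Library totals were 20294968 to 27708023 counts, and 3 counts, taken as the detection floor, were worth 0.108 to 0.148 CPM. All 6 genes passed the expression filter that left 17827 genes. Nox4 itself had 3 to 22 counts in the WT#1-4 libraries, 56 to 203 in those of WT#20D-17 and 0 to 2 in the 10 Nox4-/- libraries. The WT#20D-17 libraries stood apart from the rest, with a median correlation with the other libraries of 0.728 to 0.787 against 0.858 to 0.950 elsewhere, so tests over lines and days are also given without it. The WT#20D-17 libraries also differed in the markers of the labelled cell type: on day 0 the pluripotency genes Nanog and Dppa5a stood at 383 and 900 CPM in WT#20D-17, whereas Nanog did not exceed 1.03 CPM on any day in the 3 other lines, Zfp42 had no counts there and Dppa5a reached at most 2.22 CPM. Fgf4, the most abundant gene of that list outside WT#20D-17, was at 58.4 to 192 CPM in those 3 lines. Of the 8 pluripotency genes, 7 were higher and 1 lower in WT#20D-17 than in WT#1-4 over the days, in a contrast that called 39.7% of all genes, and 1 was lower in the Nox4-/- lines than in WT#1-4, in a test that called 3.97% of all genes as lower.

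**Figure D1:**
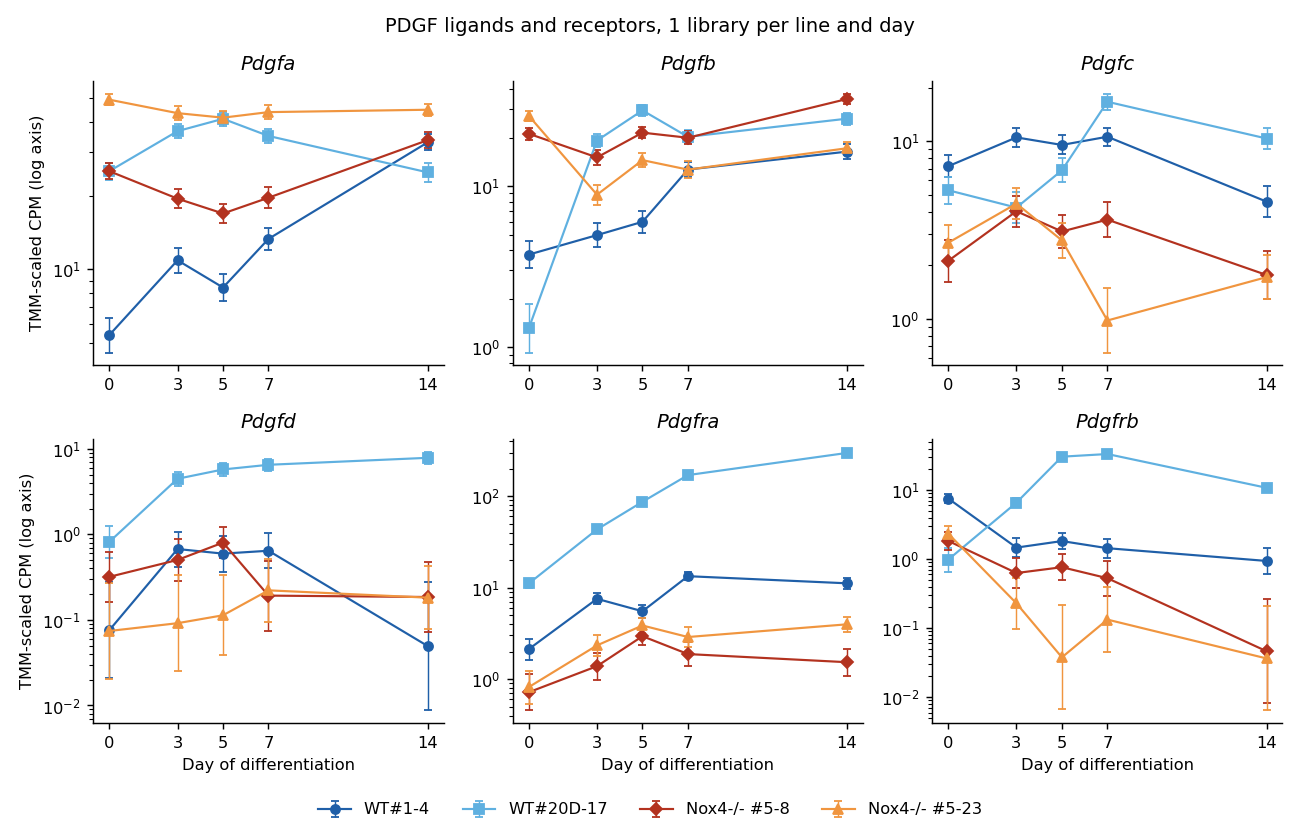
Level of each PDGF gene (TMM-scaled CPM, log axis, a separate scale per panel) against day for the 4 lines. Each point is 1 library and bars are 95% Wilson intervals, which cover counting error only. Pdgfra and Pdgfd are highest in WT#20D-17 on every day, and Pdgfc is higher in WT#1-4 than in both Nox4-/- lines on all 5 days.

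Pdgfa (ENSMUSG00000025856, GRCm38 chromosome 5, 138976014 to 138997370, minus strand) had the highest mean CPM of the ligands in each line. In WT#1-4 it stood at 5.39, 10.9, 8.43, 13.3 and 33.0 CPM on days 0, 3, 5, 7 and 14. The corresponding levels were 25.2, 36.7, 41.1, 35.0 and 24.9 CPM in WT#20D-17, 25.2, 19.4, 16.9, 19.6 and 33.7 CPM in Nox4-/- #5-8 and 49.2, 43.4, 41.6, 43.8 and 44.8 CPM in Nox4-/- #5-23. WT#1-4 lay below both Nox4-/- lines on 5 of 5 days, narrowly on day 14. WT#20D-17 lay between the Nox4-/- lines on days 3, 5 and 7 and below both on day 14. Nox4-/- #5-23 held the steadiest level, with a 1.18-fold span over the days against 6.11-fold in WT#1-4. An antisense gene, 6330403L08Rik, shares 813 exon bases with Pdgfa and had 25 to 121 counts a library against 142 to 1325 for Pdgfa. Whether counting used the strand is not given in the sources used here, so a small part of the Pdgfa counts is uncertain.

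The sequence before its start is shown because Pdgfa was the top ligand per kb of exon in all 20 libraries (by CPM, Pdgfb exceeded it in WT#20D-17 on day 14 and in #5-8 on days 5, 7 and 14, and Pdgfc in WT#1-4 on days 0 and 5). It is the upstream of 2 RefSeq start windows, 250 bases of GRCm38.p6 at chr5:138994945-138995194 on the minus strand, written 5' to 3'. Here and in the windows printed for Pdgfd and Pdgfra, both strands were searched for the TATA box TATAAA, the box CCAAT, the GC box GGGCGG, the GATA motif GATAA and the SOX motif ACAAAG, and capitals mark the matches.
Pdgfa: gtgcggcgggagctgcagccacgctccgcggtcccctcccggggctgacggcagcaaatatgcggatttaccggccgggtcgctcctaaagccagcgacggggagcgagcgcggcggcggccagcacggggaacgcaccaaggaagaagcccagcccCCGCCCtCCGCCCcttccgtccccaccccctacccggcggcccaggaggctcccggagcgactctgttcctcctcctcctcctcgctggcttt
The window is 72.4% G and C, against a median of 52.4% over 32851 RefSeq windows of this length. It holds the GC box on the reverse strand at 93 and 86 bases before the start, a motif found in 32.7% of windows, and neither CCAAT (33.8% of windows) nor the other motifs. RefSeq start windows matched 4 of the 6 genes.

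Pdgfb (ENSMUSG00000000489, chromosome 15, 79995874 to 80014977, minus strand), the ligand that endothelial cells use to recruit mural cells, was the second ligand by mean CPM in 4 of 4 lines. Its levels on the 5 days were 3.76, 4.97, 6.004, 12.7 and 16.4 CPM in WT#1-4 and 1.31, 19.2, 29.5, 20.2 and 26.2 CPM in WT#20D-17. In Nox4-/- #5-8 they were 21.1, 15.1, 21.4, 19.9 and 34.7 CPM, and in Nox4-/- #5-23 they were 27.3, 8.84, 14.5, 12.7 and 17.2 CPM. The genotypes were furthest apart on day 0, when both wild type lines were at 3.76 CPM or less and both Nox4-/- lines at 21.1 CPM or more. From day 3 on the ranges of wild type and Nox4-/- lines overlapped.

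Pdgfc (ENSMUSG00000028019, chromosome 3, 81036416 to 81214040, plus strand) was lower in both Nox4-/- lines than in WT#1-4 on 5 of 5 days. WT#1-4 gave 7.22, 10.5, 9.51, 10.6 and 4.56 CPM and WT#20D-17 gave 5.29, 4.22, 6.84, 16.6 and 10.3 CPM. Nox4-/- #5-8 gave 2.12, 4.03, 3.10, 3.61 and 1.76 CPM and Nox4-/- #5-23 gave 2.68, 4.45, 2.76, 0.977 and 1.71 CPM. The 5 libraries of WT#1-4 lay narrowly above the 10 Nox4-/- libraries (lowest 4.56 against highest 4.45 CPM). How many of all genes are separated in this split was not counted, so the separation is only a description. WT#20D-17 lay above both Nox4-/- lines on 4 of 5 days, the exception being day 3. Means over days were 8.47 ± 2.57 and 8.67 ± 5.02 CPM (SD over 5 days) in WT#1-4 and WT#20D-17 against 2.92 ± 0.965 and 2.51 ± 1.31 CPM in Nox4-/- #5-8 and #5-23.

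Pdgfd (ENSMUSG00000032006, chromosome 9, 6168584 to 6378850, plus strand) was close to the detection floor outside WT#20D-17. That line had 0.820, 4.48, 5.75, 6.53 and 7.87 CPM on the 5 days. WT#1-4 had 2, 17, 16, 17 and 1 counts, Nox4-/- #5-8 had 8, 12, 21, 4 and 4 counts and Nox4-/- #5-23 had 2, 2, 3, 5 and 5 counts. WT#20D-17 was therefore above each of the other lines on all 5 days, while the 3 other lines overlapped one another. No difference in Pdgfd among those 3 lines was called in the tests below, although #5-23 lay below #5-8 on 4 of 5 days. The low counts limit these comparisons.

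The window before the RefSeq start of Pdgfd is printed because it was the ligand most like Pdgfra over the libraries. It lies at chr9:6168236-6168485 on the plus strand (GRCm38.p6).
Pdgfd: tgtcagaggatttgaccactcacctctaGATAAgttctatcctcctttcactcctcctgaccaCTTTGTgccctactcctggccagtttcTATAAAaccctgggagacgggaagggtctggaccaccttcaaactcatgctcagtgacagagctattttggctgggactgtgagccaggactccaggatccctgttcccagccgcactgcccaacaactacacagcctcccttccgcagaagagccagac
The TATA box begins 160 bases, the SOX motif on the reverse strand 187 bases and the GATA motif 222 bases before the start. Of all windows 12.4% hold the first, 16.5% the second and 22.6% the last of these. These matches are letters in the reference and say nothing on whether a factor binds there.

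Pdgfra (ENSMUSG00000029231, chromosome 5, 75152292 to 75198215, plus strand) reached the highest level of the 6 genes. It stood at 2.13, 7.55, 5.52, 13.3 and 11.2 CPM in WT#1-4 and at 11.1, 43.3, 86.9, 170 and 297 CPM in WT#20D-17. Both Nox4-/- lines stayed low, at 0.719, 1.38, 2.94, 1.88 and 1.53 CPM in #5-8 and 0.818, 2.34, 3.86, 2.89 and 3.97 CPM in #5-23. On each day the order was WT#20D-17, WT#1-4, Nox4-/- #5-23 and Nox4-/- #5-8. Day 0 was the lowest day in 4 of 4 lines, and the day 14 level was 26.8-fold the day 0 level in WT#20D-17, 5.24-fold in WT#1-4, 4.86-fold in #5-23 and 2.13-fold in #5-8.

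The window before the RefSeq start of Pdgfra, printed as that of the receptor gene on which the ligand to receptor comparison turns, lies at chr5:75152001-75152250 on the plus strand (GRCm38.p6).
Pdgfra: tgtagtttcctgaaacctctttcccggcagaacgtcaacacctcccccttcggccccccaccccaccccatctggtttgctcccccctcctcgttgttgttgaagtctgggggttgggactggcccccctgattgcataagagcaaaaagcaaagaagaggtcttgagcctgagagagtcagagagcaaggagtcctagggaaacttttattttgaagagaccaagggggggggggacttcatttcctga
It is 54.4% G and C and holds none of the 5 motifs, which says only that these letters are not in this window. The study had also measured Pdgfra by RT-PCR, and its primers are given to show which stretch of the mRNA that assay reads.
forward: tccttctaccacctcagcgag
reverse: ccggatggtcactctttaggaag
Both matched 2 transcripts of Pdgfra and no other gene in GENCODE M21. The forward primer lies in exon 21 (chr5:75189280-75189300) and the reverse primer in exon 22 (chr5:75192454-75192476) of the transcript ENSMUST00000000476, so the product of 103 bases crosses an intron and is coding throughout.

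Pdgfrb (ENSMUSG00000024620, chromosome 18, 61045150 to 61085061, plus strand) followed opposite courses in different lines. Its levels were 7.56, 1.47, 1.83, 1.44 and 0.942 CPM in WT#1-4, with the highest value on day 0. In WT#20D-17 it went from 0.984 CPM on day 0 through 6.59, 30.5 and 33.3 CPM to 10.8 CPM on day 14. Nox4-/- #5-8 had 46, 15, 20, 11 and 1 counts and Nox4-/- #5-23 had 63, 5, 1, 3 and 1 counts, so day 0 was the highest day in 3 of the 4 lines and the last Nox4-/- values are at or below the floor. WT#1-4 lay above both Nox4-/- lines on 5 of 5 days.

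The study's main comparison asks what the loss of Nox4 changes, and was rerun as WT#1-4 against both Nox4-/- lines over all days (5 against 10 libraries, edgeR's exact test without covariates, Benjamini-Hochberg adjusted p under 0.01 as threshold). Pdgfc was lower in the Nox4-/- lines, with a log2 fold change of -1.64 (adjusted p = 5.07e-05). Pdgfra was also lower, with a log2 fold change of -1.83 (adjusted p = 0.000909). These are 2 of 6 genes in a test that called 5.62% of 33860 genes, 3.97% as lower and 1.65% as higher. For the 4 others the log2 fold change was 1.25 for Pdgfa (adjusted p = 0.0253), 1.14 for Pdgfb (adjusted p = 0.0397), -0.60 for Pdgfd (adjusted p = 0.854) and -1.997 for Pdgfrb (adjusted p = 0.103), none past the threshold. Pdgfa, Pdgfb and Pdgfra are among the genes the study itself picked out on these libraries, so their direction here is not independent evidence. That selection required a call in the study's own edgeR comparison, which reported more genes than the 1903 called here. The study's calls of Pdgfa and Pdgfb were not reproduced in this rerun at either threshold, and both genes leaned higher in the Nox4-/- lines. The study describes the MAPK and PI3K-Akt pathways, whose listed genes include both, as activated in wild type cells only. The reason was not tested. In bulk RNA, fewer cells of a type and less mRNA per cell cannot be told apart. The shares of all genes in this test, here and elsewhere, are over 33860 genes, of which 17827 passed the expression filter. Genes with few counts are hard to call, so the shares among expressed genes may be higher.

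The Pdgfra call depended on single lines and days. Its adjusted p was 0.0668 without Nox4-/- #5-8, 0.0224 without the day 3 libraries and 0.0566 without those of day 7, and the log2 fold change stayed between -1.48 and -1.76 in these 3 fits. Pdgfa passed without Nox4-/- #5-8 (adjusted p = 0.00157), and Pdgfa and Pdgfb both passed without the day 14 libraries (adjusted p = 8e-05 and 0.00581). With day as a term, so that libraries of the same day were compared, 5 of 6 genes passed, as the differences in Pdgfa (log2 fold change 1.44, adjusted p = 0.000136), Pdgfb (1.23, adjusted p = 0.00061) and Pdgfrb (-2.30, adjusted p = 9.98e-05) were added. The share of all genes called in that fit is not given here, so the count of 5 cannot be set against it. With the line as the unit, counts were summed per line and 2 lines were set against 2. In edgeR's quasi-likelihood test 0 of 6 genes then passed (3 at an unadjusted p under 0.05). As 0 of all genes passed in this fit, that count is not a result about the 6 genes. An exact permutation test of 2 lines against 2 cannot give a p below 0.333.

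The 4 lines were then compared with each other in edgeR's quasi-likelihood fit with line and day as terms. Of the 6 genes, 5 differed among the lines (Pdgfra adjusted p = 6.97e-09, Pdgfd 2.99e-06, Pdgfrb 0.000111, Pdgfa 0.000965, Pdgfc 0.00115) and Pdgfb did not pass (adjusted p = 0.124). In this test 51.4% of the 17827 genes were called. Without WT#20D-17, a fit added after the data were seen, 4 of 6 passed against 22.6% of all genes, and Pdgfd no longer did (adjusted p = 0.177). Pdgfa fell short without day 3, day 5 or day 7 (adjusted p = 0.0139, 0.0115 and 0.0109), and Pdgfb passed without day 0 (adjusted p = 0.00132).

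The 2 wild type lines differed from each other in most members. Relative to WT#1-4, WT#20D-17 was higher for Pdgfd by 3.61 ± 0.58 (log2 fold change ± SE, adjusted p = 7.51e-05) and for Pdgfra by 3.54 ± 0.41 (adjusted p = 2.15e-06). Pdgfrb was higher by 3.30 ± 0.87 (adjusted p = 0.00459) and Pdgfa by 1.34 ± 0.33 (adjusted p = 0.00289), making 4 of 6, all higher, where 39.7% of all genes were called and 20.4% as higher. Pdgfc differed between these lines by 0.04 ± 0.40 (adjusted p = 0.942), smaller than its SE. The Pdgfa and Pdgfrb calls were lost in fits without day 3 (adjusted p = 0.026 and 0.0152), without day 5 (0.0261 and 0.0288) and without day 7 (0.0152 and 0.0387), and that of Pdgfrb also without day 14 (0.0196). Without day 0 Pdgfb was called as well (adjusted p = 0.000746).

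Each Nox4-/- line was also set against WT#1-4 on its own. In #5-8 Pdgfra was lower by a log2 fold change of -2.13 ± 0.42 (adjusted p = 0.00205), the single member called where 8.21% of genes were called and 5.31% as lower. In #5-23 Pdgfa was higher by 1.82 ± 0.33 (adjusted p = 0.00093) and Pdgfc lower by -1.70 ± 0.41 (adjusted p = 0.0072), where 11.6% of genes were called, 4.87% as higher and 6.73% as lower. The remaining values pointed the same way in both lines for Pdgfb (1.43 ± 0.53 and 1.06 ± 0.54) and Pdgfrb (-1.75 ± 0.86 and -2.71 ± 0.91), without passing. Leaving out days took single calls away: that of Pdgfra in #5-8 without day 3 or day 7 (adjusted p = 0.0173 and 0.025), and that of Pdgfc in #5-23 without any 1 of the 5 days (adjusted p 0.0116 to 0.0405). The Pdgfa call in #5-23 was lost without day 3 or day 7 (adjusted p = 0.0127 and 0.0108). Without day 0, Pdgfb passed in #5-8 (adjusted p = 0.00586) and Pdgfrb in #5-23 (adjusted p = 0.00114), and without day 14 Pdgfa passed in #5-8 (adjusted p = 0.00619). Between the 2 Nox4-/- lines 0 of 6 genes were called (2 at an unadjusted p under 0.05, and 3.63% of all genes called), the largest value being Pdgfd at -1.55 ± 0.66. Without day 14 Pdgfa passed there too (adjusted p = 0.00867).

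Set against WT#20D-17, both Nox4-/- lines were lower for the same 4 genes. Pdgfra differed by -5.67 ± 0.46 in #5-8 and -5.03 ± 0.44 in #5-23, and Pdgfrb by -5.05 ± 0.96 and -6.01 ± 1.04. For Pdgfd the differences were -3.45 ± 0.59 and -5.00 ± 0.64, and for Pdgfc -1.60 ± 0.41 and -1.74 ± 0.42 (all adjusted p at most 0.00365, where 44.1% and 44.9% of genes were called, 23.1% as lower in each). Pdgfc is thus the gene whose difference from the Nox4-/- lines had nearly the same size against either wild type line. However, Pdgfc was not called in #5-8 against WT#1-4. Its call against WT#20D-17 was lost in #5-8 without day 5, 7 or 14 (adjusted p = 0.013, 0.0106 and 0.0249) and in #5-23 without day 7 or 14 (adjusted p = 0.0142 and 0.0141). With the 2 lines of each genotype averaged, the Nox4-/- lines were lower for these 4 genes (Pdgfc -1.65 ± 0.29, Pdgfd -2.42 ± 0.43, Pdgfra -3.58 ± 0.30, Pdgfrb -3.88 ± 0.66), where 37.9% of genes were called and 19.6% as lower. These comparisons share libraries and are not independent of each other.

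**Figure D2:**
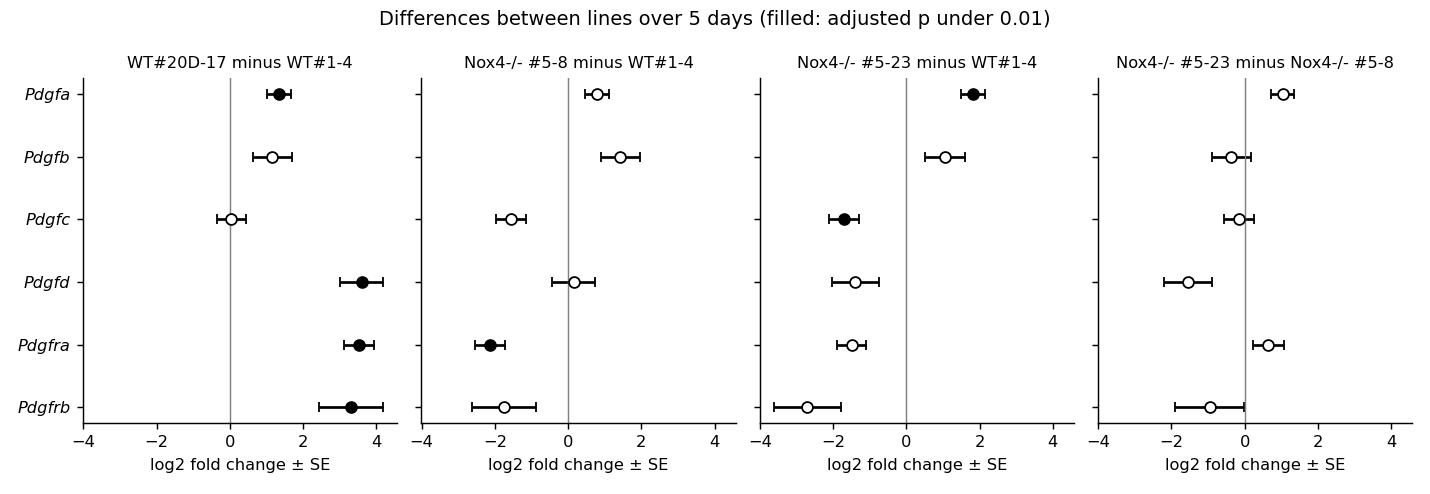
Log2 fold change ± SE between lines over 5 days for each PDGF gene (x axis), in 4 contrasts. Filled points have an adjusted p under 0.01 in edgeR's quasi-likelihood test. Pdgfd, Pdgfra and Pdgfrb are over 3 log2 units higher in WT#20D-17 than in WT#1-4, and no point is filled between the 2 Nox4-/- lines.

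A shift of a whole chromosome moves with some of these values. Over 967 genes of chromosome 5, the median log2 difference of Nox4-/- #5-23 was 0.53 from WT#1-4, 0.50 from Nox4-/- #5-8 and 0.47 from WT#20D-17, while the medians of chromosomes 3, 9, 15 and 18 lay between -0.04 and 0.06 in the same contrasts. Pdgfa and Pdgfra are both on chromosome 5, and the part of this shift in their values in #5-23 was not tested. The Pdgfa value of that line against WT#1-4, 1.82, is larger than the chromosome's median.

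Which of the genes changed over the days was asked in the same fit. Pdgfra was the single member called (adjusted p = 0.00257, 1 of 6, with 18.0% of all genes called). Relative to day 0 its log2 fold change over the 4 lines was 1.60 ± 0.48 on day 3 (adjusted p = 0.162, 0.163% of genes called) and 2.18 ± 0.48 on day 5 (adjusted p = 0.0108, 2.55% called), neither past the threshold. It was higher than on day 0 by 2.53 ± 0.48 on day 7 (adjusted p = 0.00167, 11.9% of genes called and 6.47% as higher) and by 2.88 ± 0.48 on day 14 (adjusted p = 0.000205, 28.8% called and 14.8% as higher). The call was lost without WT#1-4 (adjusted p = 0.0259) and without Nox4-/- #5-23 (adjusted p = 0.0341), and without the line term (adjusted p = 0.300). Pdgfrb, at -3.20 ± 1.04 on day 14 relative to day 0, passed only when WT#20D-17 was left out (-4.08, adjusted p of the test over days 0.00175, 2 of 6 genes called then). Pdgfa, Pdgfb, Pdgfc and Pdgfd had adjusted p-values of 0.257 to 0.659 over the days.

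Whether the course over the days differed between the genotypes was tested by an interaction term. For 0 of 6 genes was it past the threshold in edgeR's quasi-likelihood test, where 0.0112% of all genes were called, and DESeq2's likelihood ratio test also called 0 of 6. Before adjustment 2 of 6, Pdgfb and Pdgfra, were under 0.05, and their adjusted p-values in the edgeR test were 0.607 and 0.63. Without WT#1-4 the interaction of Pdgfb passed (adjusted p = 0.0071).

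Ligand and receptor levels can be compared only per length, so CPM was divided by the kilobases (kb) of merged exons, of which Pdgfa has the fewest (3119 bases) and Pdgfra the most (10024 bases). Summed over the 4 ligands, WT#1-4 had 4.08 CPM per kb on day 0 and 15.4 on day 14, with the 2 receptors at 1.59 and 1.28. In both Nox4-/- lines ligand mRNA exceeded receptor mRNA by far: ligands were at 10.8 to 22.9 and receptors at 0.161 to 0.509 CPM per kb. In WT#20D-17 the receptor sum went from 1.29 on day 0 through 5.53, 14.2 and 23.1 to 31.6 CPM per kb on day 14, while the ligand sum was 9.68, 18.6, 23.4, 21.4 and 18.8.

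The log2 ratio of ligands to receptors, averaged over the days, was 2.62 ± 0.80 (SD over 5 days) in WT#1-4, 0.90 ± 1.46 in WT#20D-17, 5.50 ± 0.84 in Nox4-/- #5-8 and 5.65 ± 0.21 in Nox4-/- #5-23. The highest value of a wild type library, 3.58, lay below the lowest of a Nox4-/- library, 4.72. How often ratios of other genes separate the genotypes in this way was not counted. The ligand sum exceeded the receptor sum in 18 of the 20 libraries, and the receptor sum was 1.08-fold the ligand sum on day 7 and 1.68-fold on day 14 in WT#20D-17. Without length scaling the mean of WT#20D-17 turned negative, -0.45, so the order of ligands and receptors in that line depends on the scale. These ratios carry no test, since they combine 6 genes of 1 library per line and day.

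**Figure D3:**
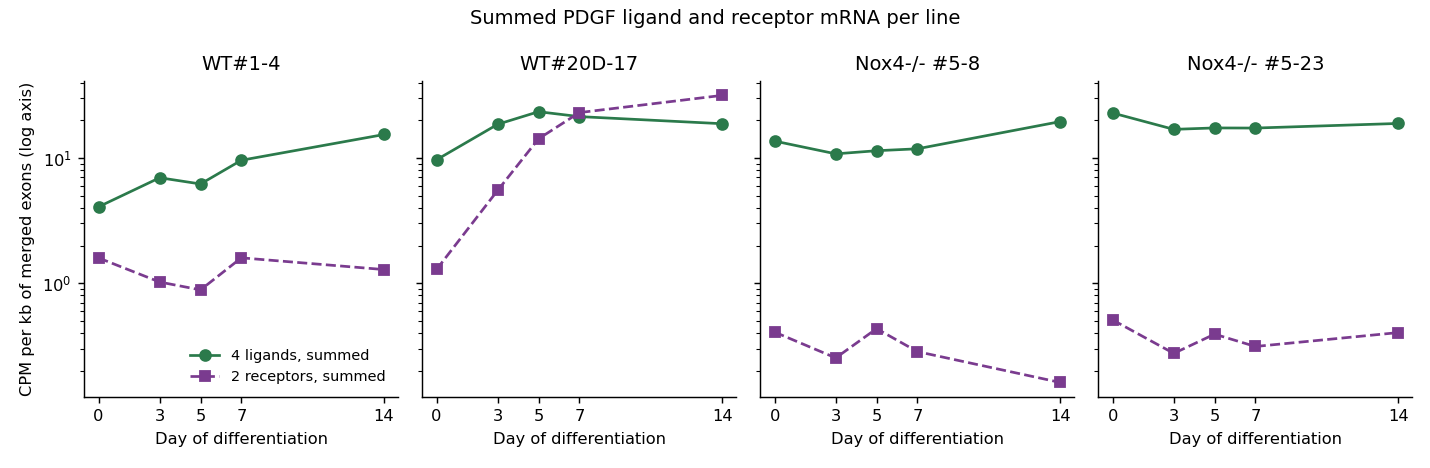
Summed CPM per kb of merged exons (log axis) of the 4 ligands (circles) and the 2 receptors (squares) against day, 1 panel per line. Receptors lie above the ligands on days 7 and 14 in WT#20D-17 and stay between 0.161 and 0.509 CPM per kb in the Nox4-/- lines.

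Pdgfa was the highest ligand per kb in all 20 libraries, giving 42.4 to 83.3% of the ligand sum. Pdgfb gave 3.26% of it in WT#20D-17 on day 0 and up to 45.1% in Nox4-/- #5-8 on day 5. Pdgfc took 34.8% in WT#1-4 on day 0 and 5.81% on day 14, and at most 7.33% in any Nox4-/- library. Pdgfra was the higher receptor in 17 of the 20 libraries, and Pdgfrb in the day 0 libraries of WT#1-4, #5-8 and #5-23, where it gave 86.7, 82.4 and 84.0% of the receptor sum. By day 14 Pdgfra gave 86.6, 93.8, 94.7 and 98.3% of the receptor sum in WT#1-4, WT#20D-17, #5-8 and #5-23.

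Over the 20 libraries, which share lines and are not independent, Pearson's r of log2(CPM + 1) between members was 0.92 for Pdgfd with Pdgfra, 0.83 for Pdgfd with Pdgfrb, 0.77 for Pdgfra with Pdgfrb, 0.66 for Pdgfc with each receptor gene, 0.56 for Pdgfc with Pdgfd, 0.52 for Pdgfa with Pdgfb and -0.49 for Pdgfa with Pdgfc, and the other pairs lay between -0.28 and 0.27. Pdgfd did not exceed 0.803 CPM outside WT#20D-17, the line that also reached the highest Pdgfra and Pdgfrb levels. The r values of these genes, with each other and with the genes named next, may therefore largely set this line against the rest. No r was computed without it. Out of 14578 genes averaging 1 CPM or more over the libraries, those most like Pdgfra were Tspan2 (r = 0.98), Pth1r (0.98) and Iqsec1 (0.97). Those most like Pdgfrb were Cdh11 (0.95), the mural cell gene Rgs5 (0.95) and Slit3 (0.95), and those most like Pdgfd were Gjb2, Fcgr3 and Nkain4 (each 0.98). For Pdgfc they were Mtus1 (0.88), Itga8 (0.88) and Alcam (0.87), for Pdgfa Got1l1 (0.88), Plk2 (0.86) and Tmem120a (0.85), and for Pdgfb Cryab (0.83), Rhou (0.80) and Lxn (0.78).

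Markers of cell types known to carry the receptors were followed beside them, and their part in the receptor levels was not tested. The primitive endoderm list (8 genes) summed to 1074 to 36062 CPM in WT#20D-17, against 180 to 639 CPM in the 3 other lines. All 8 genes were higher in WT#20D-17 than in WT#1-4 (20.4% of all genes were), and 0 of 8 were called between WT#1-4 and the Nox4-/- lines, where 5.62% of all genes were, by edgeR's exact test (3 of 8 at an unadjusted p under 0.05). Its 2 most abundant genes, Col4a1 and Lamb1, made up most of the sum, and its transcription factor Sox17 reached 144 CPM in WT#20D-17 but had no counts in either Nox4-/- line and at most 0.531 CPM in WT#1-4. The fibroblast list (9 genes) summed to 23.9 to 3000 CPM in WT#20D-17, 64.5 to 127 CPM in WT#1-4, 11.9 to 28.9 CPM in #5-8 and 6.003 to 19.6 CPM in #5-23. Col3a1 and Col1a1, its most abundant genes, reached 1002 and 951 CPM in WT#20D-17. Of the 9 fibroblast genes, 6 were lower in the Nox4-/- lines than in WT#1-4 (exact test, 3.97% of all genes called as lower), the same direction as Pdgfra. In the 3 lines whose Pdgfrb was highest on day 0, the list sum went from 111 CPM on day 0 to 64.5 CPM on day 3 in WT#1-4 and from 19.6 to 6.003 CPM in #5-23, but from 18.4 to 19.5 CPM in #5-8, so the list as a whole did not move with Pdgfrb in every line. Col3a1, 1 of the 9 genes and picked after its values were seen, was at 24.0, 4.07 and 4.57 CPM on day 0 in WT#1-4, #5-8 and #5-23 and at 2.18, 0.629 and 0.137 CPM on day 3. In #5-8 the rest of the list therefore rose in sum while Col3a1 fell, so Col3a1 does not stand for the list. Col3a1 and Pdgfrb are expressed by fibroblasts, on which the iPSCs had been kept, and the part of such cells in the day 0 values was not tested.

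The mural list (8 genes) summed to 475 to 1072 CPM in WT#1-4, where Des dominated, to 226 to 985 CPM in WT#20D-17 and to 29.6 to 199 CPM in the Nox4-/- lines, and 3 of its 8 genes were lower in the Nox4-/- lines than in WT#1-4, against 3.97% of all genes. Within it Rgs5 reached 20.0 CPM in WT#20D-17 on day 5, when Pdgfrb was at 30.5 CPM, and had no counts in the Nox4-/- libraries from day 5 on. The mesoderm list summed to 0.892 to 16.7 CPM in the 3 other lines and to 36.8, 56.9, 11.4, 5.77 and 5.77 CPM on the 5 days in WT#20D-17, where T, the gene for Brachyury, was at 43.8 CPM on day 3. Single genes made up much of these sums, and that of day 0 in WT#20D-17 was mostly Tcf15 (31.3 CPM). On days 7 and 14, when Pdgfra was highest in WT#20D-17, the list sum of that line was below that of WT#1-4 (12.9 and 16.7 CPM). The largest part of the WT#1-4 sums was Tbx6 (7.51 and 10.3 CPM). In the oligodendrocyte precursor list Olig1 was at 3.79 to 10.7 CPM in the Nox4-/- lines and at most 1.90 CPM in the wild type lines, while Sox10 did not exceed 0.139 CPM in the Nox4-/- lines. As a possible ligand source, the endothelial list summed to 18.1 to 184 CPM in WT#20D-17 and to 158 to 542 CPM elsewhere, with Tek and Pecam1 most abundant. Its genes did not share 1 order of the lines. Cldn5 was highest in WT#1-4 (70.0 CPM on day 7). Tie1 and Cdh5 were highest in WT#20D-17, at 12.9 CPM on day 7 and 95.6 CPM on day 14, against at most 0.569 and 28.3 CPM elsewhere. The sum therefore does not rank the lines by endothelial cells. Emcn had no counts in the Nox4-/- lines, but was also at the floor in WT#1-4, with at most 3 counts a library. It reached 48 counts in WT#20D-17 on day 7. The megakaryocyte list stayed at 0.639 to 8.39 CPM. Between WT#1-4 and the Nox4-/- lines 2 of 7 mesoderm and 2 of 8 endothelial genes were lower, 2 of 4 oligodendrocyte precursor genes were higher (3.97% of all genes were lower and 1.65% higher) and 0 of 5 megakaryocyte genes were called by edgeR's exact test (3 of 5 at an unadjusted p under 0.05).

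**Figure D4:**
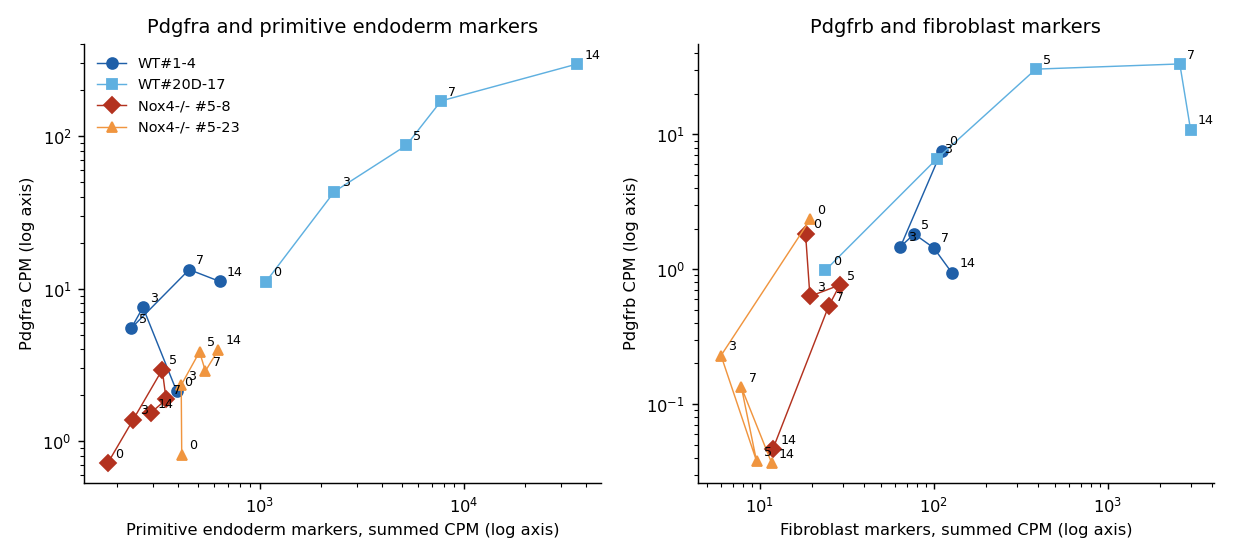
Left, Pdgfra against the summed primitive endoderm markers, and right, Pdgfrb against the summed fibroblast markers (CPM, all axes logarithmic). Each point is 1 library, numbered by day, and lines join the days of a line. WT#20D-17 runs from 11.1 to 297 CPM of Pdgfra as the markers go from 1074 to 36062 CPM, and the 3 other lines stay below 14 CPM of Pdgfra.

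Of the 24 protein-coding genes nearest to the members, 2 on each side, 6 were called between WT#1-4 and the Nox4-/- lines, in a test that called 5.62% of all genes. Cbx7, a Polycomb gene 24755 bases from Pdgfb, was at 26.4 to 272 CPM in the wild type libraries and at 0.0765 to 0.674 CPM in the Nox4-/- libraries (log2 fold change -7.55, adjusted p = 1.76e-50), while Pdgfb itself did not pass. Prkar1b, next to Pdgfa, was lower as well (-3.24, adjusted p = 9.76e-08), opposite in sign to Pdgfa. Downstream of Pdgfra lie the related receptor kinases Kit, 376701 bases away, and Kdr. Kdr was lower in the Nox4-/- lines (-2.53, adjusted p = 0.00882) with 0.038 to 2.88 CPM in WT#1-4 and at most 0.302 CPM in the Nox4-/- lines, and stood at 0.328 to 55.9 CPM in WT#20D-17. Csf1r, 15537 bases from Pdgfrb, reached 36.1 CPM in WT#20D-17 on day 14 and at most 3.52 CPM in the other lines, and did not pass between genotypes (adjusted p = 0.144).

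Genes that process PDGFs, bind them, relay their signal, damp it or respond to it were taken from 5 lists with 83 genes. Between WT#1-4 and the Nox4-/- lines 14 of 83 (16.9%) were called, all 14 lower and 0 higher, against 5.62% of all genes (3.97% lower and 1.65% higher), with a list median log2 fold change of -0.37 against 0.00 over all genes. The 5 with the largest falls were Cspg4, the NG2 proteoglycan that binds PDGF-A (-3.55, adjusted p = 8.39e-13), the proprotein convertase Pcsk5 (-2.92, adjusted p = 2.95e-05) and the protease Plau, which activates PDGF-D (-2.87, adjusted p = 6.35e-14). The others were the response genes Hbegf (-2.80, adjusted p = 0.00018) and Ccl2 (-2.62, adjusted p = 0.00111). The other wild type line did not share all of these levels: Cspg4 averaged 13.3 CPM in WT#1-4 but 0.887 CPM in WT#20D-17, below the 1.34 CPM of #5-8 and the 0.927 CPM of #5-23. By list, 6 of 16 early response genes, 3 of 11 processing and binding genes, 3 of 15 related receptors and ligands, 2 of 31 signal relay genes and 0 of 10 attenuators were called. Of the 83 genes 80 passed the expression filter, against 17827 of the 33860 genes tested. The lists and all genes are thus not matched for expression, and part of the gap between their shares may come from this.

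Over the days 18 of the 80 pathway genes that passed the filter were called (22.5%, against 18.0% of all genes), and 25 of 79 without WT#20D-17 (23.4% of all genes then). All 18 were higher on day 14 than on day 0 by the fitted log2 fold change. The largest were the early response gene Ier3 (4.33 ± 0.37), Vegfa (4.13 ± 0.40), the PDGF-binding matrix gene Sparc (3.95 ± 0.44), the VEGF receptor gene Flt1 (3.94 ± 0.70) and Cav1 (3.83 ± 0.75), each with an adjusted p of at most 0.0007. Among the lines 45 of 80 differed (56.2%, against 51.4% of all genes), or 30 of 79 without WT#20D-17 (22.6% of all genes then). Of the 45, 26 had their highest mean in WT#20D-17, 12 in WT#1-4, 6 in #5-23 and 1 in #5-8. In absolute CPM, a scale that favours abundant genes, Sparc had the widest range of line means, from 518 CPM in #5-23 to 3789 CPM in WT#20D-17, followed by the endocytic receptor gene Lrp1 (258 CPM in WT#20D-17 to 1152 CPM in #5-23), Vegfa (78.8 CPM in #5-23 to 310 CPM in WT#1-4), Flt1 (6.07 CPM in #5-23 to 168 CPM in WT#20D-17) and the adaptor gene Gab1 (22.8 CPM in #5-8 to 170 CPM in WT#20D-17). The interaction of genotype and day was past the threshold for 1 of 80, Kit.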

How the data were processed

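RNA of mouse EB cultures was sequenced in 20 stranded mRNA libraries. Per the labels and the methods of the study, the authors mapped reads to GRCm38 (mm10) with STAR 2.6.0c and deposited expected counts per gene estimated with RSEM 1.3.1, not normalized. Line and day came from the sample titles. Reads that match more than 1 gene are shared out by RSEM, and whether it used the strand is not given in the sources used here.

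Expected counts were rounded to whole numbers and scaled by TMM with edgeR 4.0.16 in R 4.3.3. Symbols and lengths came from GENCODE M21 (GRCm38), which held 55480 of the 55573 identifiers. Genotypes were compared by edgeR's exact test on 33860 genes with a nonzero value, and days, lines and their interaction by quasi-likelihood tests on 17827 genes that passed filterByExpr, all with Benjamini-Hochberg adjusted p under 0.01. The SE was taken as the log2 fold change over the square root of F. Levels used for correlations were log2(CPM + 1). Intervals are 95% Wilson intervals and, like the floor of 3 counts, cover counting error only. P-values over libraries of single lines measure the spread between these libraries.

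Libraries with the same number are the same line on each day, so line is a replicate block in the fits over days. As a check, deviations of a line from its genotype's mean correlated between days with r of 0.55 to 0.92 (wild type) and 0.40 to 0.86 (Nox4-/-). Scripts were tested on simulated data. Alternatives covered the test (DESeq2 1.42.0, quasi-likelihood, line sums), scaling, filter, threshold, lengths and leaving out each line or day. Named genes were the 6 members, the pathway genes with the 5 largest rises and falls among those called (for lines, the 5 widest ranges), the 3 genes most like each member and the 2 nearest on each side. Cbx7, Prkar1b, Kdr, Csf1r and Kit were singled out among the neighbours after their values were seen. Members, lists and motifs were chosen with earlier results of these data known. The figures were drawn with matplotlib 3.10.9.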

Additional observations from a re-analysis of the deposited data

Results flagged for a closer look

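Kit, the stem cell factor receptor gene that neighbours Pdgfra, was the single gene among the PDGF family and its pathway lists whose change over the days differed between the genotypes by the interaction test (adjusted p = 0.00214, edgeR's quasi-likelihood test). On days 0, 3, 5, 7 and 14 it stood at 1.60, 4.37, 8.32, 8.95 and 14.1 CPM in WT#1-4 and at 18.7, 48.0, 99.5, 92.7 and 291 CPM in WT#20D-17. In the Nox4-/- lines it stood at 4.67, 3.48, 2.37, 2.84 and 1.07 CPM (#5-8) and at 18.8, 13.1, 12.7, 11.3 and 6.09 CPM (#5-23). Both wild type lines were highest on day 14 and both Nox4-/- lines on day 0. The day 14 to day 0 change of the Nox4-/- lines minus that of the wild type lines was -5.49 ± 0.39 on the log2 scale. The call was lost in 4 alternatives in which 0 of all genes passed: the fit with no line term and those without WT#20D-17, Nox4-/- #5-8 or Nox4-/- #5-23.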

How the results depend on the processing

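With 1 library per line and day, every p-value rests on 3 or 4 lines, and counts near the floor (Pdgfd outside WT#20D-17, Pdgfrb in the late Nox4-/- libraries) limit those fold changes. In the genotype comparison 2 of 6 members were called with TMM, upper quartile or RLE scaling, with filterByExpr, at an FDR of 0.001, in the quasi-likelihood test without covariates and in DESeq2's Wald test. The count was 5 with day as replicate block, 4 at an FDR of 0.05, 4 with WT#20D-17 as the wild type line, 4 with all 20 libraries and 0 with counts summed per line (fewer units). It was 1 without day 3, 1 without day 7 and 4 without day 14, and 2 to 2 without either Nox4-/- line. The called genes of all tested were 1903, against 1228 (quasi-likelihood), 1221 (FDR of 0.001), 8751 (WT#20D-17 in place), 4101 (20 libraries), 0 (line sums), 1267 (without day 5) and 1114 (without day 7). For this comparison the all-gene counts with day as replicate block, at an FDR of 0.05 and without day 14 are not given here. Over the days 1 member was called, 0 with no replicate block for line, and 0 to 2 when a line was left out. All-gene counts were 3203 against 1033 (no replicate block), 5277 (FDR of 0.05), 5093 (DESeq2) and 624 to 1428 (without Nox4-/- #5-23, Nox4-/- #5-8 or WT#1-4). Among the lines 5 members were called, and 4 to 6 without a day. All-gene counts were 9162, against 3843 without WT#20D-17. The interaction called 0 members, and 0 to 1 without a line, with 2 genes of all tested against 0 (no replicate block), 11 (no filter), 5 (FDR of 0.05), 185 (DESeq2) and 0 to 605 (without a line). The replicate block moved no other member count. Without length scaling the mean log2 ligand to receptor ratio was 1.51, -0.45, 4.34 and 4.26 in WT#1-4, WT#20D-17, #5-8 and #5-23, and using library totals in place of TMM cannot change it.

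Signs turned only for differences that passed no test. For Pdgfc, day 14 minus day 0 was -0.51 to 0.097 over the fits without a line (0.065 without WT#1-4), WT#20D-17 minus WT#1-4 was -0.25 to 0.28 without a day (-0.14 without day 7), and #5-23 minus #5-8 was -0.30 to 0.081 (without day 7). Pdgfb in #5-8 minus WT#20D-17 was -0.11 (without day 0) to 0.48, and in #5-23 minus WT#20D-17 it was -0.84 to 0.19 (without day 3), with 0.15 without day 5. Pdgfd in #5-8 minus WT#1-4 was -0.23 (without day 0) to 0.56. The interaction at day 14 was -2.50 to 0.14 for Pdgfa (without WT#1-4), -1.49 to 0.13 for Pdgfc and -3.24 to 0.67 for Pdgfd (both without WT#20D-17). The causes were not tested.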
